A study of Homo sapiens with 24 samples.

Results

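The mRNAs of 10 cytosolic and mitochondrial heat shock proteins and their partners were followed in SW1783, a human astrocytoma cell line, after exposure to extracts of Schisandrae Fructus (SF), the fruit of Schisandra chinensis. At the high dose of the water extract (WESF), HSPA1A and HSPA1B, which encode the stress-inducible HSP70, rose about 2-fold, and HSPB1, the small heat shock protein HSP27, fell to 0.52 of the vehicle level. At the high dose of the ethanol extract (EESF) HSPB1 fell as well, to 0.689 of its vehicle, while the changes of HSPA1A and HSPA1B did not pass the test. Both were called higher when replicate 1 of that group was left out. HSPA1A was also called with all 4 groups of the batch in the fit and with counts thinned to the shallowest library. The low and medium doses of EESF were accompanied by lower HSPA1A, HSPA1B, HSPA8 and HSPH1. Of these calls, those of HSPA8 and HSPH1 were lost at both doses without replicate 2 of the vehicle. That of HSPA1B at the low dose was lost with all 4 groups of the batch in the fit. At the low or medium dose of WESF edgeR called no member, while DESeq2 called HSPA8 and HSP90AA1 at the medium dose.

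The members were HSPA1A, HSPA1B, HSPA8, DNAJB1, HSPH1, HSP90AA1, HSP90AB1, HSPB1, HSPD1 and BAG3. They were chosen by name, as the rows of the expected-count table whose Ensembl identifiers map to these symbols, and all 10 were found among 60675 genes, of which 19586 are protein-coding. All 10 passed the filter on low counts in each comparison.

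The 24 libraries fall into 8 groups of 3, and every culture was exposed for 24 h. Batch A holds WESF at 500, 100 and 20 µg/mL, called high, medium and low here, and vehicle A. Batch B holds EESF, made with 70% ethanol, at 310, 62 and 12.4 µg/mL, and vehicle B. Vehicle cells received 0.1% DMSO, no group carries a genetic change, and SW1783 is a single line. The DMSO content of the extract-treated cultures is not given in the labels, so whether it matched the vehicle at each dose is unknown. The doses of the extracts differ at every step, so the extracts were compared step by step and not at matched concentrations. The high doses also differ in toxicity. In the authors' preliminary screening WESF at 500 µg/mL was not toxic, while 310 µg/mL EESF lay at its 20% inhibitory concentration. Total expected counts per library ran from 18727797 to 32567395, with a median of 25177961. Nothing in the labels says that the libraries of a group came from separate cultures, so p-values measure the spread between these libraries, which may be technical. Replicate libraries of a group were never copies of each other. Chi-square divided by its degrees of freedom, over genes with at least 20 counts in the 2 libraries together, ran from 2.05 to 14.1. Sampling noise alone gives values near 1. The highest values were 14.1 and 9.3 for replicate 3 of low-dose WESF against replicates 1 and 2, 11.3 and 8.77 for replicate 1 of high-dose EESF against replicates 3 and 2, and 10.3 for replicate 1 against replicate 3 of medium-dose EESF.

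Heat shock proteins are chaperones that bind unfolded proteins and either refold them or hand them on for degradation. In stressed cells the transcription factor HSF1 is released from inhibitory chaperones, forms trimers and binds heat shock elements, which are inverted repeats of the unit nGAAn, upstream of its targets. Astrocytes and astrocytic tumours are known to make HSP27 and its relative CRYAB. In bulk RNA, fewer cells of a type and less RNA per cell cannot be told apart.

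The labelled cell type was checked against its markers. Of 9 astrocyte markers, SLC1A3, GJA1, SOX9 and GLUL were present in all 24 libraries, with 30.7 to 33.8 TMM-normalized CPM (counts scaled to a common library size) for SLC1A3 and 201 to 212 CPM for GJA1 in the vehicles. GFAP, the intermediate filament that defines mature astrocytes, reached at most 0.34 CPM, and S100B, AQP4, ALDH1L1 and SLC1A2 reached at most 0.547 CPM. Genes of mesenchymal cells were high, with 3670 to 3880 CPM for COL1A1 in the vehicles, and VIM lay between 4800 and 4930 CPM there.

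The upstream sequences of members that moved are shown here because heat shock elements are the best known route to these genes. Starting from RefSeq promoters of GRCh38.p14, which run from 250 bases before to 50 bases after each start, 9 of the 10 members were matched at their annotated start, and HSPH1 was not used. The search was for 2 facing units, written GAANNTTC or TTCNNGAA, on both strands. Capitals mark these matches, overlapping ones joined, and each line reads 5′ to 3′ on the gene's own strand. HSPA1A and HSPA1B are the pair that rose most, HSPA8 and HSP90AA1 rose with them at high-dose WESF, and DNAJB1 and HSPB1 fell at both high doses.
HSPA1A: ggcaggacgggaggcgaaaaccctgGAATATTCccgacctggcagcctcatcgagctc
HSPA1B: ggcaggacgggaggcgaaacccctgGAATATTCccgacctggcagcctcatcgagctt
HSPA8: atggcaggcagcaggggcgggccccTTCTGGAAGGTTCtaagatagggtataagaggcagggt
HSP90AA1: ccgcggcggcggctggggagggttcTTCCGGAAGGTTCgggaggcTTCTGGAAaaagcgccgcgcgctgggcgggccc
DNAJB1: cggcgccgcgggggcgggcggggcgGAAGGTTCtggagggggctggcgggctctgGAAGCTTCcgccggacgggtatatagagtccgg
HSPB1: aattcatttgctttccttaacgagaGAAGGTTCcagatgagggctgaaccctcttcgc

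These stretches lie at chr6:31815412-31815469 and chr6:31827608-31827665 on the plus strand for HSPA1A and HSPA1B, at chr11:123062154-123062216, chr14:102087080-102087157 and chr19:14518412-14518499 on the minus strand for HSPA8, HSP90AA1 and DNAJB1, and at chr7:76302466-76302523 on the plus strand for HSPB1. The stretches of HSPA1A and HSPA1B have the same base at 56 of 58 positions. Counted from the start of transcription, the match begins at -106 in HSPA1A, at -105 in HSPA1B and at -182 in HSPB1. HSP90AA1 holds 3 matches in its window and HSPA8 holds 4, of which 2 are shown. No match was found in the windows of HSP90AB1 and BAG3, and HSPD1 holds 3 matches. The 2-unit match occurs in 13.5% of the 35116 promoters of the same length, and a run of 3 units, GAANNTTCNNGAA or TTCNNGAANNTTC, which HSPA8, HSP90AA1 and HSPD1 hold, occurs in 0.49%. A match describes letters only, and members that rose and members that fell both hold one.

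In unstressed cells the members spanned a wide range. Per kb of the annotated transcript, the vehicle level was highest for HSP90AB1, the constitutive cytosolic HSP90, at 629 ± 11.2 CPM per kb (SD, n = 6). HSPA8, the constitutive HSP70 known as HSC70, followed at 554.3 ± 17.1 CPM per kb, HSPB1 at 426 ± 20.8 CPM per kb and HSP90AA1, the inducible HSP90, at 356 ± 6.02 CPM per kb. These 4 were among the most abundant mRNAs of the cells, ranking 68, 87, 116 and 136 of 19586 protein-coding genes. HSPD1, the mitochondrial HSP60, had 123 ± 3.62 CPM per kb and DNAJB1, the J-domain protein that delivers clients to HSP70, 64.7 ± 2.4. HSPA1A had 55 ± 0.968, HSPA1B 44.2 ± 2.34, BAG3, the co-chaperone that directs HSP70 clients to autophagy, 27 ± 0.924, and HSPH1, the HSP110 nucleotide exchange factor, 24.1 ± 0.599 CPM per kb. The 6 vehicle libraries behind each SD are not independent of each other, as described below. Counts behind single values ran from 1181 for BAG3 to 58012 for HSP90AB1.

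Same-numbered libraries of the vehicles went together across the batches. Over the 1000 most abundant genes, their deviations from the group means correlated at 0.95, 0.82 and 0.94, against at most -0.06 for other numbers. They differed by more than sampling noise, with a chi-square divided by its degrees of freedom of 3.11 to 3.42, but the 6 vehicle libraries are not independent of each other, and neither are the comparisons of the 2 batches. Vehicle B against vehicle A gave log2 fold changes between -0.09 for HSPA1B and 0.02 for HSPA1A, with 0 members and 0% of 13001 genes called by edgeR's quasi-likelihood test at an adjusted p below 0.05, while 371 genes had an unadjusted p below 0.05. DESeq2 called 3 of the genes. With the replicate number as a block, which this pairing calls for, edgeR called 478 genes and 2 members lower in vehicle B, HSPA8 at -0.04 (adjusted p = 2.18e-05) and HSPA1B at -0.09 (adjusted p = 0.0391), both lower in 3 of 3 pairs. What same-numbered vehicles share is not given in the labels, so the spread within pairs may be technical.

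**Figure D1:**
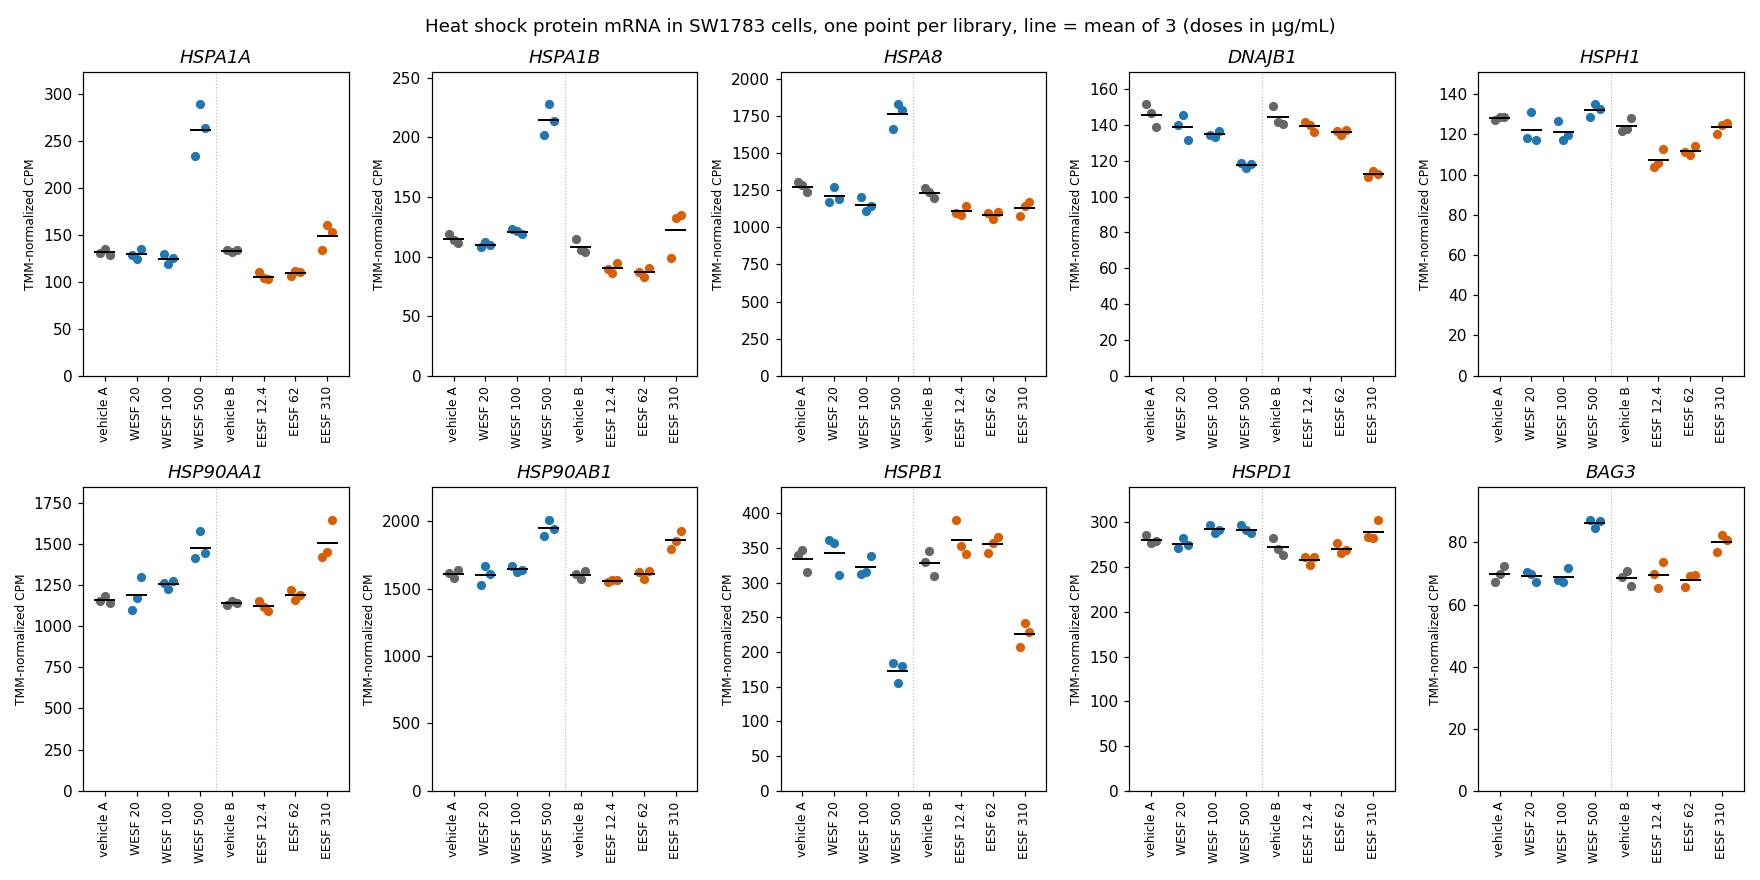
Expression of the 10 members in TMM-normalized CPM (vertical axes, each from 0) in the 8 groups (horizontal axes, doses in µg/mL). Points are libraries, lines are means of 3, and the dotted line separates batch A from batch B; HSPA1A reaches 233.6 to 288.6 CPM at 500 µg/mL WESF against 128.6 to 134.8 CPM in vehicle A, and HSPB1 falls to 155.9 to 183.8 CPM there.

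High-dose WESF was compared with vehicle A first. Of the 10 members, 6 rose (HSPA1A, HSPA1B, HSPA8, HSP90AA1, HSP90AB1 and BAG3), 2 fell (DNAJB1 and HSPB1), and HSPH1 and HSPD1 did not pass the test. Of all 13129 genes tested, 34.3% were called up and 34.6% down at this dose. All treated libraries lay above all vehicle libraries for 7 members and 35.5% of genes, and below them for 2 members and 35.9% of genes. DEGs, which also needed a fold change beyond 1.5, numbered 3 among the members, with HSPA1A and HSPA1B up and HSPB1 down, against 11.1% of genes that were DEGs up and 13% that were DEGs down. The median log2 fold change was 0.29 over the members and 0.00 over all genes.

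HSPA1A and HSPA1B encode nearly the same protein from neighbouring genes of the major histocompatibility complex. HSPA1A (ENSG00000204389, chr6:31815543-31817946) had 130, 134.8 and 128.6 CPM in vehicle A and 233.6, 288.6 and 263 CPM at high-dose WESF. HSPA1B (ENSG00000204388, chr6:31827738-31830254) had 119.2, 113.5 and 111.4 CPM in vehicle A and 202.2, 227.8 and 213.5 CPM at high-dose WESF. Every high-dose library lay above every vehicle library for both genes. The log2 fold change was 1.00 (SE 0.062, edgeR adjusted p = 3.69e-10) for HSPA1A and 0.91 (SE 0.051, adjusted p = 9.32e-11) for HSPA1B. RSEM divides reads shared by the copies, and 72.4% of the 100-base windows of the HSPA1A transcript also occur in HSPA1B, so the split between them is uncertain. Their sum avoids that split and rose from 249.3, 248.2 and 240 CPM to 435.9, 516.4 and 476.6 CPM, a change of 0.96 in log2 units (SE 0.055, adjusted p = 1.45e-10).

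HSPB1 (ENSG00000106211, chr7:76302673-76304295) moved the other way. It had 339.9, 347 and 314.9 CPM in vehicle A and 183.8, 155.9 and 179.3 CPM at high-dose WESF. The groups were far apart, and the log2 fold change was -0.94 (SE 0.056, edgeR adjusted p = 2.18e-10). Pseudogenes named for HSPB1 held at most 0.0591% of its counts in any library.

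The other HSP70 member, HSPA8 (ENSG00000109971, chr11:123057489-123063230), which folds new proteins in unstressed cells, had 1306, 1284 and 1237 CPM in vehicle A and 1667, 1831 and 1796 CPM at high-dose WESF. It rose by 0.47 on the log2 scale (SE 0.047, edgeR adjusted p = 1.37e-07), with no overlap between the groups. The J-domain partner DNAJB1 (ENSG00000132002, chr19:14514769-14560391) had 151.6, 146.9 and 139.1 CPM in vehicle A and 118.8, 116.3 and 118.1 CPM after the extract. It thus fell while HSP70 mRNA rose, with a change of -0.31 in log2 units (SE 0.044, adjusted p = 1.08e-05). DNAJB1 overlaps TECR on the other strand, with 93118 counts for TECR over the 24 libraries against 2378 to 4284 for DNAJB1 in each. Whether strand was used in counting is not stated in the sources used here, and the part of TECR in the fall of DNAJB1 was not tested.

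The HSP90 genes and BAG3 rose by smaller amounts. HSP90AA1 (ENSG00000080824, chr14:102080742-102139699) had 1153, 1183 and 1140 CPM in vehicle A and 1412, 1575 and 1442 CPM at high-dose WESF, a change of 0.35 in log2 units (SE 0.049, edgeR adjusted p = 5.82e-06). HSP90AB1 (ENSG00000096384, chr6:44246166-44253888) had 1617, 1578 and 1640 CPM against 1890, 2013 and 1941 CPM, a change of 0.28 in log2 units (SE 0.044, adjusted p = 2.93e-05). BAG3 (ENSG00000151929, chr10:119651380-119677819) had 67.1, 69.92 and 72.25 CPM against 87.33, 84.71 and 87.02 CPM, a change of 0.31 in log2 units (SE 0.046, adjusted p = 1.15e-05). For these 3 genes no treated library overlapped the vehicle. HSP90AA1 overlaps WDR20 on the other strand, with 8234 counts for WDR20 over the 24 libraries against at least 20454 for HSP90AA1 in each.

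HSPH1 and HSPD1 stayed near the vehicle. HSPH1 (ENSG00000120694, chr13:31134973-31162388) had 127, 128.6 and 128.8 CPM in vehicle A and 128.6, 134.9 and 132.5 CPM at high-dose WESF, a log2 fold change of 0.05 with a 95% confidence interval (CI) from -0.04 to 0.14. HSPD1 (ENSG00000144381, chr2:197486584-197516737) had 285.7, 276.7 and 278.5 CPM against 296.5, 290.8 and 287.9 CPM, a log2 fold change of 0.06 with a CI from -0.02 to 0.15. The groups overlapped for HSPH1 and lay just apart for HSPD1, and a change of the size seen for HSPA1A lies outside both intervals. HSPD1 shares its start region with HSPE1 on the other strand, and reads of the overlap may have been assigned to either.

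High-dose EESF was compared with vehicle B next. Here 3 members rose (HSP90AA1, HSP90AB1 and BAG3), 3 fell (HSPA8, DNAJB1 and HSPB1) and 4 did not pass the test, while 29.3% of the 13092 genes tested were called up and 28.7% down. No member was a DEG, although 6 were called without the threshold on the fold change, and 8.21% of genes were DEGs up and 9.17% DEGs down. The median log2 fold change of the members was 0.13, against 0.01 for all genes. All treated libraries lay above all vehicle libraries for 4 members and 31.7% of genes, and below them for 3 members and 31.2% of genes.

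HSP90AA1 had 1126, 1153 and 1141 CPM in vehicle B and 1418, 1452 and 1646 CPM at high-dose EESF. Its log2 fold change of 0.40 (SE 0.059, edgeR adjusted p = 0.000101) was the largest rise among the members at this dose. HSP90AB1 had 1608, 1570 and 1633 CPM against 1795, 1854 and 1931 CPM, with a change of 0.21 in log2 units (SE 0.049, adjusted p = 0.00256). BAG3 had 68.92, 70.79 and 65.86 CPM against 77, 82.3 and 80.78 CPM, with a change of 0.22 in log2 units (SE 0.054, adjusted p = 0.00352). As with WESF, the treated libraries of all 3 genes lay above the vehicle.

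HSPB1 had 329.1, 346 and 309 CPM in vehicle B and 207.9, 242.3 and 228.5 CPM at high-dose EESF, a change of -0.54 in log2 units (SE 0.064, edgeR adjusted p = 1.86e-05). DNAJB1 had 150.8, 141.6 and 140.9 CPM against 111, 114.6 and 112.9 CPM, a change of -0.36 in log2 units (SE 0.05, adjusted p = 6.83e-05). Both fell in all 3 treated libraries, below the lowest vehicle library. HSPA8 had 1267, 1237 and 1199 CPM against 1077, 1146 and 1172 CPM, a change of -0.13 in log2 units (SE 0.051, adjusted p = 0.0484). That call rests on single libraries: the adjusted p was 0.114 without vehicle B replicate 1, 0.101 without vehicle B replicate 2, 0.0886 without EESF high replicate 1 and 0.0788 without EESF high replicate 2. With the replicate number as a block the edgeR adjusted p of HSPA8 was 0.135.

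The inducible HSP70 genes varied between the libraries of high-dose EESF. HSPA1A had 133.2, 131.9 and 133.6 CPM in vehicle B and 133.1, 159.8 and 152.8 CPM at high-dose EESF, and HSPA1B had 114.5, 105.3 and 103.6 CPM against 98.53, 132.4 and 135.2 CPM. Replicate 1 of EESF lay within the vehicle range for HSPA1A and below it for HSPA1B, while replicates 2 and 3 lay above all vehicle libraries for both. The log2 fold change was 0.16 (SE 0.065, edgeR adjusted p = 0.0514) for HSPA1A and 0.18 (SE 0.099, adjusted p = 0.14) for HSPA1B. Without replicate 1 these were 0.23 (adjusted p = 0.00133) and 0.31 (adjusted p = 0.000364). HSPA1A was also called with all 4 groups of the batch in the fit (adjusted p = 0.0185) and with counts thinned to the shallowest library (adjusted p = 0.0425). HSPH1, at -0.01 (CI from -0.12 to 0.10), and HSPD1, at 0.09 (CI from -0.02 to 0.20), were not called.

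The low and medium doses of EESF gave a different set of calls. At each, 4 members fell and none rose, and they were HSPA1A, HSPA1B, HSPA8 and HSPH1 both times. The share of all genes called down was 8.48% of 12978 for medium-dose and 6.24% of 12892 for low-dose EESF, and 6.9% and 3.11% were called up. These shares moved with single libraries: leaving out 1 library changed the genes called in either direction from 1997 to between 791 and 2838 for medium-dose EESF, and from 1206 to between 213 and 2679 for low-dose EESF. At both doses the lowest count came when replicate 2 of vehicle B was left out, which left 2 members called lower, and the highest when replicate 1 was. The comparisons share the 3 libraries of vehicle B and are not independent of each other. All libraries of medium-dose EESF lay below all of vehicle B for 5 members and 16.8% of genes, and above for 1 member and 17% of genes. At low-dose EESF they lay below for 6 members and 15% of genes, and above for 0 members and 14.9% of genes.

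HSPA1A had 105.7, 111.8 and 109.9 CPM at medium-dose EESF and 109.8, 103.5 and 102.5 CPM at low-dose EESF, all below the 131.9 CPM of the lowest vehicle B library. The log2 fold changes were -0.28 (SE 0.044, edgeR adjusted p = 0.00102) and -0.35 (SE 0.042, adjusted p = 0.00124). HSPA1B had 87.4, 83.07 and 90.2 CPM and 89.82, 86.48 and 94.37 CPM, with log2 fold changes of -0.31 (adjusted p = 0.00133) and -0.27 (adjusted p = 0.00634). The low-dose call of HSPA1B was lost with all 4 groups of the batch in the fit (adjusted p = 0.072). For the sum of both genes these were -0.29 (adjusted p = 0.000741) and -0.31 (adjusted p = 0.00131), so the sum, which does not depend on the split of shared reads, fell as well.

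HSPA8 had 1097, 1055 and 1103 CPM at 62 µg/mL and 1097, 1082 and 1144 CPM at 12.4 µg/mL EESF, with log2 fold changes of -0.18 (SE 0.046, edgeR adjusted p = 0.0139) and -0.17 (SE 0.037, adjusted p = 0.0157). HSPH1 had 111.4, 109.9 and 114 CPM and 103.8, 105.6 and 112.6 CPM, against 121.9, 122.5 and 128.3 CPM in vehicle B, with log2 fold changes of -0.15 (SE 0.045, adjusted p = 0.0322) and -0.22 (SE 0.045, adjusted p = 0.0107). Each of these 4 calls was lost when single libraries were left out. Without vehicle B replicate 2 the adjusted p of HSPA8 became 0.0742 at 62 and 0.0826 at 12.4 µg/mL, and that of HSPH1 became 0.0881 and 0.0533. HSPB1 was not called at either dose, at 0.12 (CI from 0.01 to 0.22) and 0.13 (CI from 0.02 to 0.25).

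Within batch B, high-dose EESF was also set against the lower doses of the same extract, a comparison chosen after the data had been seen. Against the low dose 7 members were higher and 2 lower, with 57% of genes called, and against the medium dose 6 were higher and 2 lower, with 50.9% of genes called. HSPA1A was higher by 0.50 (SE 0.064, edgeR adjusted p = 2.26e-05) than at the low and by 0.45 (SE 0.063, adjusted p = 4.96e-05) than at the medium dose on the log2 scale. HSPA1A therefore did not move in 1 direction with the dose of EESF: it was lower than the vehicle at 12.4 and 62 µg/mL and higher at 310 µg/mL than at either. HSPA8 did not show this return, with 0.03 (adjusted p = 0.547) and 0.07 (adjusted p = 0.317).

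At the lower doses of WESF edgeR called no member with all libraries. The medium dose gave 0 of 10 members by edgeR, with 4.1% of 13112 genes called, and 3 members had an unadjusted p below 0.05. Leaving out 1 library changed the 537 genes behind this share to between 72 and 1560, and the replicate number as a block changed them to 185. DESeq2 called 476 genes, with HSPA8 lower, at -0.14 (adjusted p = 0.0387), and HSP90AA1 higher, at 0.12 (adjusted p = 0.0442). Without WESF medium replicate 1 edgeR called HSPA8 too, at -0.17 (adjusted p = 0.0485). The low dose gave 0 members and 0% of 13131 genes, while 470 genes but no member had an unadjusted p below 0.05, and DESeq2 called 1 gene. At the low dose HSPA1A had 127.9, 124.5 and 134.6 CPM and HSPB1 had 361, 356.5 and 311.3 CPM, both overlapping vehicle A. High-dose WESF was also set against its own lower doses, a comparison likewise chosen after the data had been seen. It reuses the high-dose libraries, so its calls are not independent of those against the vehicle. The 6 members that rose and the 2 that fell against the vehicle were called in the same directions. Against the low dose 6 members were higher and 2 lower (68.1% of genes called), and against the medium dose 7 were higher and 2 lower (67.6% of genes called). The member added at the medium dose was HSPH1, at 0.13 (SE 0.041, adjusted p = 0.0102). HSPA1A was higher by 1.02 (SE 0.066, adjusted p = 9.57e-09) and by 1.07 (SE 0.058, adjusted p = 4.8e-12) than at the low and medium dose.

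**Figure D2:**
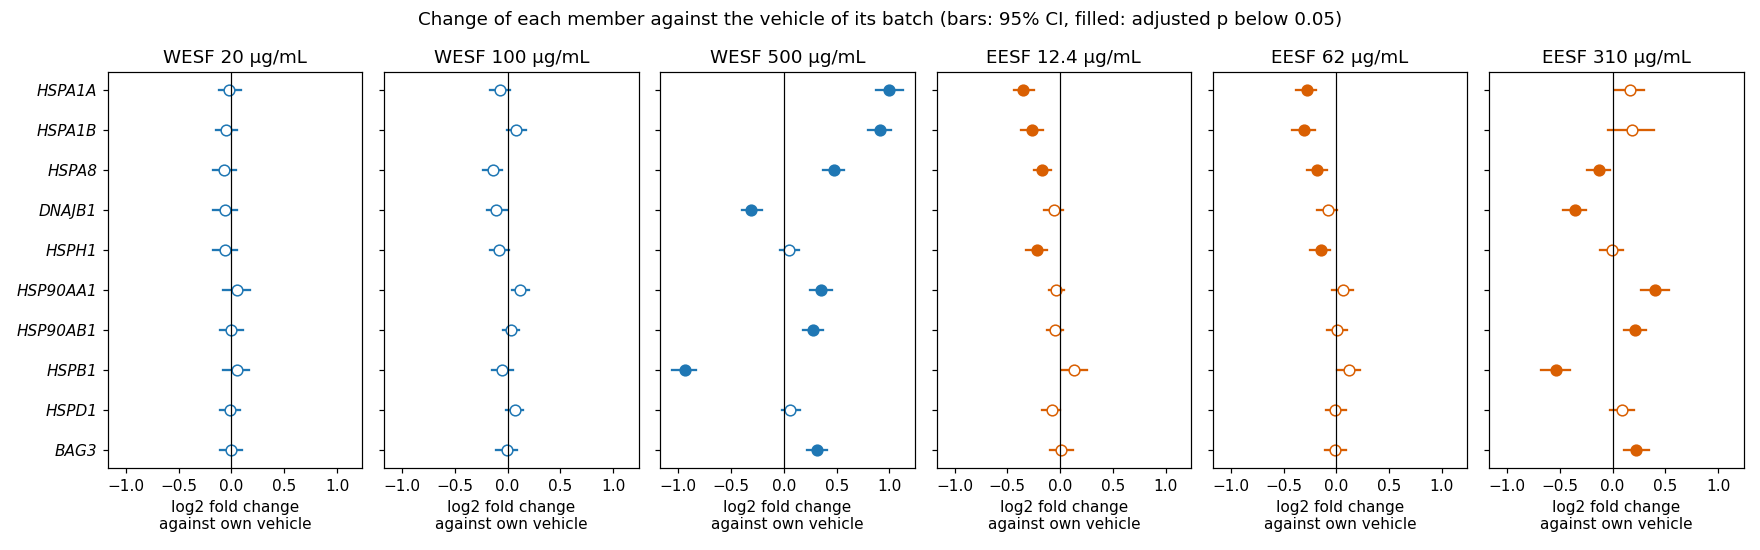
Log2 fold change of each member (rows) against the vehicle of its batch for the 6 doses (panels, blue WESF and orange EESF). Bars are 95% confidence intervals from edgeR and filled points have an adjusted p below 0.05; HSPA1A and HSPB1 stand at 1.00 and -0.94 at 500 µg/mL WESF, and 4 members are filled to the left of 0 at 12.4 and 62 µg/mL EESF.

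Ordered by mean level over the 8 groups, HSPA1A was highest at high-dose WESF (261.8 CPM), whose libraries overlapped no other group, followed by high-dose EESF (148.5 CPM), which overlapped the vehicles. Vehicle B, vehicle A and the low and medium doses of WESF lay between 132.9 and 124.5 CPM and each overlapped the next. Medium-dose (109.2 CPM) and low-dose EESF (105.2 CPM) were lowest, apart from the rest and overlapping each other. HSPB1 was lowest at high-dose WESF (173 CPM), then high-dose EESF (226.2 CPM), and these groups overlapped neither each other nor the remaining 6, which lay between 321.9 and 361.6 CPM.

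The extracts were then compared by testing the difference between their changes, each taken against its own vehicle. Extract and batch are confounded, so an effect of the extract and one of the batch cannot be told apart in these differences. The doses differ in concentration, and the high doses in toxicity, as given above. The part of toxicity in these differences was not tested. At the high dose the change with EESF was lower than that with WESF for 3 members and higher for 1, against 13.3% of 13376 genes called lower and 12.7% called higher. HSPA1A differed by -0.84 on the log2 scale (SE 0.1, edgeR adjusted p = 6.1e-05), HSPA1B by -0.73 (SE 0.12, adjusted p = 0.000811) and HSPA8 by -0.60 (SE 0.067, adjusted p = 4.46e-05). HSPA8 was the only one of these 3 that was called in opposite directions, at 0.47 with WESF and -0.13 with EESF. The second call rests on single libraries and was also lost with the replicate number as a block. HSPB1 differed by 0.41 (SE 0.093, adjusted p = 0.005), since it fell less with EESF.

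The other 6 members were not called in this difference. The intervals were -0.18 to 0.08 for DNAJB1, -0.12 to 0.21 for HSP90AA1, -0.19 to 0.06 for HSP90AB1 and -0.22 to 0.05 for BAG3 on the log2 scale. For HSPH1 and HSPD1 they were -0.18 to 0.07 and -0.10 to 0.16. Differences as large as that of HSPA1A lie outside these intervals.

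At the medium dose 1 member, HSPA1B, was called, at -0.40 (SE 0.064, edgeR adjusted p = 0.0223), where 0.203% of 13276 genes were called. Leaving out 1 library changed the 27 genes behind this share to between 1 and 146. With the replicate number as a block within each batch the call of HSPA1B was lost (adjusted p = 0.0915), and 0 genes were called. Without the block HSPA1B kept an adjusted p below 0.05 in only part of the fits that left out 1 library: the adjusted p was 0.0898 without vehicle A replicate 2, 0.0648, 0.0609 and 0.0603 without WESF medium replicates 1, 2 and 3, and 0.0577 without vehicle B replicate 2. HSPA1A differed by -0.22 (adjusted p = 0.128) and the sum of both genes by -0.30 (adjusted p = 0.036). At the low dose 0 members were called by edgeR, 0.00756% of 13221 genes were called, and HSPA1A stood at -0.31 (adjusted p = 0.172). DESeq2 called it at -0.32 (adjusted p = 0.00179). With the vehicle pairs as a block, a fit added after the data had been seen, the 4 calls at the high dose were kept, and edgeR called HSPA1A as well at the medium dose (adjusted p = 0.0211) and at the low dose (adjusted p = 0.00878). That fit pools the spread within vehicle pairs with the spread between treated libraries.

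**Figure D3:**
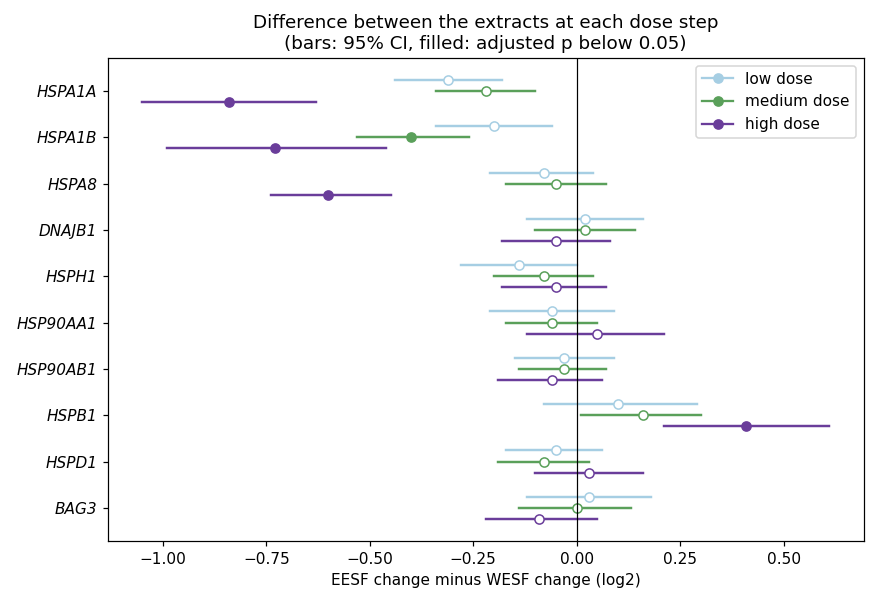
Difference between the extracts (change with EESF minus change with WESF, log2, horizontal axis) for each member at the low, medium and high dose. Bars are 95% confidence intervals and filled points have an adjusted p below 0.05; at the high dose HSPA1A, HSPA1B and HSPA8 lie at -0.84, -0.73 and -0.60 and HSPB1 at 0.41.

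The other genes of the chaperone network were taken from 8 lists of 71 genes in all. At high-dose WESF 64 were tested, of which 40 rose and 10 fell, beside 34.3% of all genes called up and 34.6% down, and their median log2 fold change was 0.19 against 0.00 for all genes. At high-dose EESF 65 were tested, of which 35 rose and 6 fell, beside 29.3% of all genes up and 28.7% down, with a median of 0.19 against 0.01. These shares also apply to the single lists at the high doses. At the lower doses the calls were few, with 3 higher of 65 at medium-dose WESF (4.1% of all genes called in either direction), 0 of 64 at low-dose WESF (0% of all genes), 5 higher and 2 lower of 64 at medium-dose EESF (6.9% and 8.48% of all genes) and 3 higher and 2 lower of 65 at low-dose EESF (3.11% and 6.24% of all genes). The shares of all genes at medium-dose WESF and at both of these EESF doses moved with single libraries, as given above.

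All 3 heat shock transcription factors tested rose at both high doses. HSF1, the main activator of the heat shock response, had 83.02, 73.15 and 74.48 CPM in vehicle A and 87.04, 87.84 and 85.39 CPM at high-dose WESF, a change of 0.18 in log2 units (SE 0.051, edgeR adjusted p = 0.00507). At high-dose EESF it had 84.04, 101.6 and 101.1 CPM against 78.48, 72.48 and 71.15 CPM, a change of 0.37 in log2 units (SE 0.075, adjusted p = 0.00109). HSF1 acts mainly through changes of its protein, which these data do not measure. HSF4, a factor best known from the lens, had the largest rises of the list, at 1.51 with WESF and 1.64 with EESF, from no more than 2.364 CPM in either vehicle.

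Of the other cytosolic HSP70 and HSP110 genes, 6 of 6 tested rose at high-dose WESF and 3 of 7 at high-dose EESF. HSPA1L, a neighbour of HSPA1A known mainly from testis, rose most, by 1.93 (SE 0.15, edgeR adjusted p = 7.15e-09) and 1.73 (SE 0.26, adjusted p = 0.000101), and was at or below 5.675 CPM in these groups. HSPA6, an HSP70 gene of strongly stressed cells, did not pass the filter on low counts in either comparison. Of 9 J-domain co-chaperones other than DNAJB1, 5 rose and 1 fell with WESF, and 3 rose and 2 fell with EESF. DNAJB5 rose most, by 0.75 and 0.73, and DNAJC5, the cysteine string protein of vesicles, fell most, with -0.49 and -0.51.

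The HSP70 co-factors were divided at high-dose WESF, with 4 of 8 higher and 4 lower, and BAG1, a nucleotide exchange factor of HSP70, fell most, at -0.64 (SE 0.075, edgeR adjusted p = 9.06e-07), while BAG6 rose most, at 0.20 (adjusted p = 0.000265). With EESF 1 rose, BAG2 at 0.18 (adjusted p = 0.0159), and 2 fell, BAG1 again lowest at -0.46 (adjusted p = 0.00113). Of 9 co-chaperones of HSP90, 5 were higher and 1 lower with either extract, beside 34.3% and 29.3% of all genes called up. AHSA1, which stimulates the HSP90 ATPase, had 92.81, 89.49 and 84.18 CPM in vehicle A and 132.9, 135.9 and 130.6 CPM at high-dose WESF, and it changed by 0.59 in log2 units (SE 0.047, adjusted p = 7.91e-09) with WESF and by 0.58 (SE 0.066, adjusted p = 1.34e-05) with EESF. The 1 that fell was CDC37, which brings kinases to HSP90, with WESF, at -0.15 (adjusted p = 0.00541), and CHORDC1 with EESF, at -0.18 (adjusted p = 0.0249).

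The small heat shock proteins beyond HSPB1 were few. Of 7 genes, 3 were tested at each high dose, and HSPB8, the partner of BAG3 in chaperone-assisted autophagy, fell by 0.75 on the log2 scale at high-dose WESF (edgeR adjusted p = 4.08e-08) and by 0.85 at high-dose EESF (adjusted p = 3.32e-06). HSPB8 thus moved with HSPB1 and opposite to BAG3. HSPB6 had 16.21, 17.28 and 15.87 CPM in vehicle A, 13.85, 8.755 and 12.67 CPM at high-dose WESF, 16.87, 17.25 and 17.62 CPM in vehicle B and 24.28, 23.85 and 23.2 CPM at high-dose EESF. It fell with WESF, at -0.47 (adjusted p = 0.00108), and rose with EESF, at 0.46 (adjusted p = 5.66e-05), and the difference of 0.94 (SE 0.14, adjusted p = 0.000352) was itself called. CRYAB was scarce, with a mean of 1.241 CPM in vehicle A and 1.07 CPM in vehicle B. It was not called at high-dose WESF (edgeR adjusted p = 0.215) or high-dose EESF (adjusted p = 0.505).

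In mitochondria HSPD1 works with HSPE1 as the folding chamber, while HSPA9 pulls proteins in and LONP1 and the CLP proteases degrade them. Of the 12 mitochondrial genes beyond HSPD1, 10 rose at high-dose WESF, where 34.3% of all genes were called up and 34.6% down, and 11 at high-dose EESF, where 29.3% were called up and 28.7% down. None of the 12 fell, and the medians were 0.41 and 0.29. HSPE1 was not called with either extract, at -0.02 (adjusted p = 0.668) and 0.03 (adjusted p = 0.756), as HSPD1 was not. HSPA9 had 360.7, 366.2 and 368.1 CPM in vehicle A and 536.7, 582.8 and 533.5 CPM at high-dose WESF, a change of 0.60 in log2 units (SE 0.046, edgeR adjusted p = 5.52e-09), and it rose by 0.28 with EESF (SE 0.046, adjusted p = 0.000217). The largest rises were those of LONP1 with WESF, at 0.74 (adjusted p = 2.32e-09), and of GRPEL1, the exchange factor of HSPA9, with EESF, at 0.60 (adjusted p = 2.59e-06).

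The TRiC chaperonin, which folds actin and tubulin, and prefoldin, which feeds it, gave 7 higher and 2 lower of 14 with WESF and 8 higher and 0 lower with EESF. PFDN2, a prefoldin subunit, rose most with either, by 0.98 (SE 0.059, edgeR adjusted p = 2.37e-10) and 1.02 (SE 0.094, adjusted p = 2.39e-06). The largest fall of the list with WESF was that of PFDN1, at -0.15 (adjusted p = 0.0485).

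**Figure D4:**
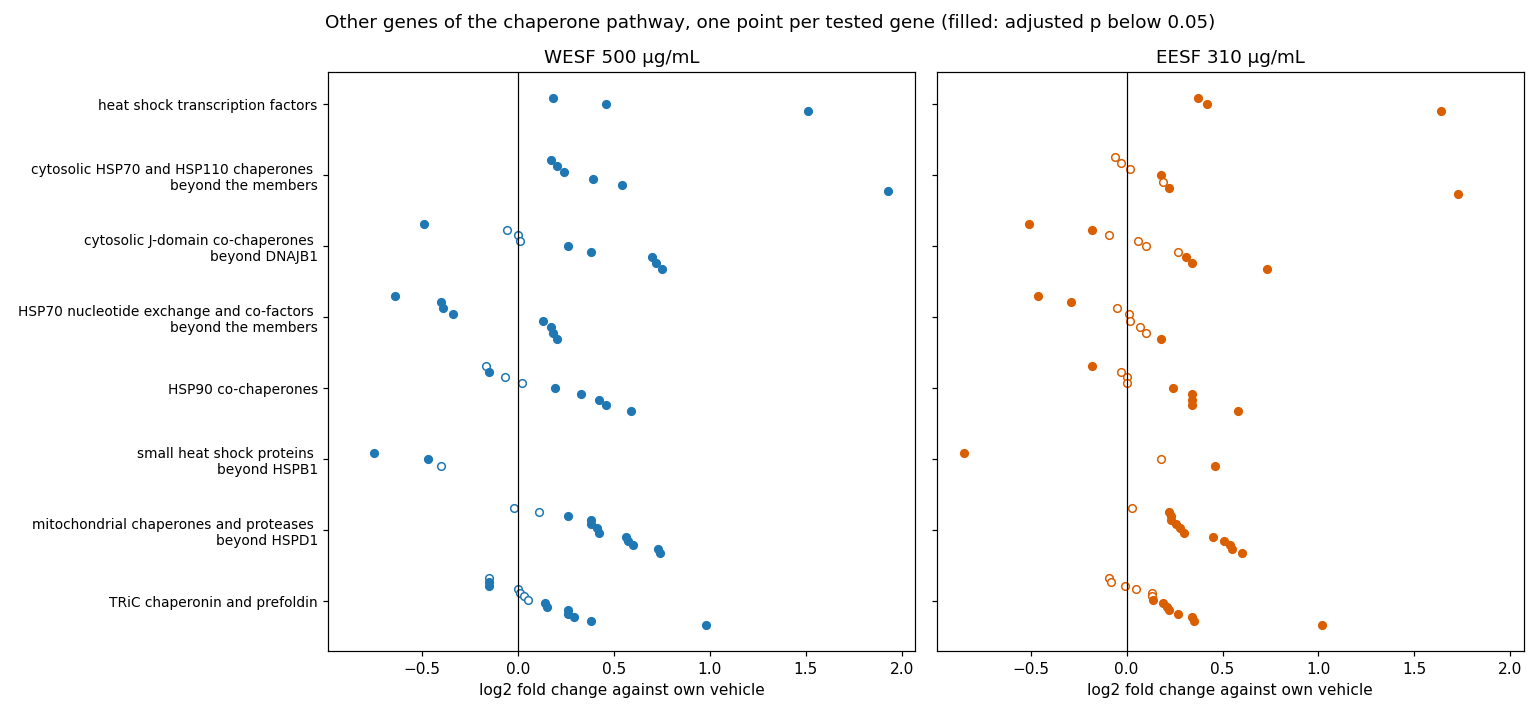
Log2 fold change (horizontal axis) of each tested gene of the 8 chaperone lists (rows) at 500 µg/mL WESF and 310 µg/mL EESF, each against its own vehicle. Filled points have an adjusted p below 0.05; every called mitochondrial gene lies to the right of 0, and HSPA1L and HSF4 lie farthest right in both panels.

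Marker genes of other cell types moved at the high doses as well. Their calls stand beside 34.3% of all genes called up and 34.6% down at high-dose WESF. At high-dose EESF these shares were 29.3% and 28.7%. The 5 neuron markers summed to 57.5, 60.88 and 62.17 CPM in vehicle A and 25.32, 26.12 and 24.55 CPM at high-dose WESF, and to 61.87, 61.94 and 64.97 CPM in vehicle B and 30.31, 25.71 and 27.02 CPM at high-dose EESF. Of these 5, 4 were tested with WESF (1 up, 3 down) and 3 with EESF (3 down); SNAP25 was the most abundant, at 24.3 CPM over all libraries, and RBFOX3 and STMN2 never passed 0.831 CPM. The 5 oligodendrocyte markers summed to 6.758, 7.769 and 6.842 CPM in vehicle A and 14.57, 13.6 and 11.83 CPM at high-dose WESF, and to 6.635, 7.32 and 7.026 CPM in vehicle B and 10.18, 10.49 and 9.851 CPM at high-dose EESF. MBP was the most abundant and the single gene of this list tested, and it rose with both extracts, while MOG was at 0 in all 24 libraries. The 5 microglia and macrophage markers summed to 190.3, 201.4 and 195.2 CPM in vehicle A and 240.3, 206.8 and 230.8 CPM at high-dose WESF, and to 201.7, 226.2 and 213.6 CPM in vehicle B and 273.9, 268.8 and 277.8 CPM at high-dose EESF. Of the 3 of them tested, 1 rose and 2 fell with either extract. CD68 was the most abundant, with 177 to 212 CPM in the vehicles, PTPRC and CSF1R had 8.85 to 10.7 and 3.18 to 3.84 CPM there, and C1QA was at 0 in all 24 libraries. The astrocyte list summed to 370.6, 390.4 and 381.4 CPM in vehicle A and 318.6, 292.6 and 311.5 CPM at high-dose WESF, and to 374.7, 386.4 and 395.3 CPM in vehicle B and 298, 287 and 292 CPM at high-dose EESF. GJA1 was the most abundant, and 3 of the 4 tested fell with either extract. The 6 fibroblast and mesenchymal markers, led by COL1A1, summed to 6350, 6300 and 6083 CPM in vehicle A and 5643, 5290 and 5438 CPM at high-dose WESF, where 1 rose and 5 fell. They summed to 6324, 6269 and 6011 CPM in vehicle B and 5656, 5780 and 5925 CPM at high-dose EESF, where 5 fell. The 5 endothelial markers, led by KDR, summed to 33.61, 37.97 and 39.49 CPM in vehicle A and 38.4, 40.69 and 40.25 CPM at high-dose WESF, where the groups overlapped and 1 of the 3 tested fell. They summed to 33.74, 36.85 and 37.25 CPM in vehicle B and 45.67, 43 and 41.37 CPM at high-dose EESF, where 1 of 3 rose, and CDH5 was at 0 in 17 of the 24 libraries. The glioma and progenitor markers, led by VIM, summed to 8391, 8421 and 8523 CPM in vehicle A and 7305, 6958 and 7138 CPM at high-dose WESF, where 3 of the 4 tested fell. In vehicle B they summed to 8489, 8577 and 8634 CPM and at high-dose EESF to 7854, 8176 and 8233 CPM, where 2 of 4 fell. The part of these shifts in the members' changes was not tested.

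Genes with the most similar profile were found by the root mean square difference between their 6 log2 fold changes and those of a member, over 10641 genes with at least 5 CPM. HSPA1A and HSPB1 were used because their own changes were largest. Nearest to HSPA1A were GAB2 (0.042), TMF1 (0.064) and RLIM (0.082). GAB2, for example, stood at 0.91 at high-dose WESF, 0.19 at high-dose EESF, -0.28 at medium-dose EESF and -0.31 at low-dose EESF. Nearest to HSPB1 were UBXN11 (0.044), ARPIN (0.045) and RRAGB (0.049), and UBXN11 stood at -0.91 at high-dose WESF and -0.52 at high-dose EESF. The 6 changes of each gene come from comparisons that share vehicles, so these distances describe these libraries only.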

How the data were processed

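RNA of SW1783 cells was sequenced as 100-base pairs, and the authors trimmed reads with Trim Galore 0.6.6, aligned them with STAR 2.7.9a and counted them with RSEM 1.3.3. The deposited values are RSEM expected counts per gene, without normalization or filter, and 10.9% differ from a whole number by over 0.001. The sources name GRCh38 and, once, hg19; identifiers belong to GRCh38, which is used here with GENCODE release 44. Expected counts were rounded. Protein-coding genes passing filterByExpr were fitted with edgeR 4.0.16 (TMM, quasi-likelihood, 2-sided, Benjamini-Hochberg over all genes tested) in R 4.3.3, on the 6 libraries of a comparison or 12 for a difference between extracts. CPM was scaled by TMM over 24 libraries. A call had an adjusted p below 0.05. DESeq2 1.42.0, other scaling, filters, depths, fits and libraries left out were alternatives. The code was tested on simulated data; it failed a first criterion, and the criteria it then passed were set after that result was seen. Same-numbered vehicle libraries of the batches were taken as pairs, since their deviations correlated at 0.82 to 0.95. Members and lists were chosen with earlier results of these data known. Named were all 10 members, HSF1, the largest rise and fall of each list among called genes, and the 3 nearest profiles; other genes were named after their values were seen.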

Additional observations from a re-analysis of the deposited data

Results flagged for a closer look

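Listed here are members whose change differed between the extracts in the test of the difference itself. At the high dose the change with EESF minus that with WESF was -0.84 on the log2 scale for HSPA1A, -0.73 for HSPA1B, -0.60 for HSPA8 and 0.41 for HSPB1. At the medium dose it was -0.40 for HSPA1B (edgeR adjusted p = 0.0223), a call that was lost with the replicate number as a block (adjusted p = 0.0915) and in 5 of the 12 fits that left out 1 library (adjusted p from 0.0577 to 0.0898). With the vehicle pairs as a block, a fit added after the data had been seen, edgeR also called HSPA1A. It stood at -0.22 at the medium dose (adjusted p = 0.0211, 606 genes called) and at -0.31 at the low dose (adjusted p = 0.00878, 223 genes called). Extract and batch cannot be told apart in these differences. Whether 1 library stands apart in its group of 3 was not tested.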

How the results depend on the processing

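Over 100 member results and their alternatives, 25 of 1402 values lost and 14 gained an adjusted p below 0.05, 26 changed sign at 2 decimals, and 1253 kept both sign and side of the threshold. The other 84 kept their side, but they or the reported value round to 0.00 and have no sign. At high-dose WESF all 10 members, and at high-dose EESF all but HSPA1A, HSPA1B, HSPA8 and HSPH1, kept both under every alternative run; the 4 differences between the extracts called at the high dose did so too. HSPA1B at low-dose EESF had an adjusted p of 0.072 with all 4 groups of the batch in the fit.

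The values that changed sign were of members that were not called. Where the reported value rounds to 0.00, leaving out 1 library gave both signs: HSP90AB1 from -0.03 to 0.03 and BAG3 from -0.03 to 0.02 at low-dose WESF, HSP90AB1 from -0.02 to 0.01 between the vehicles, and BAG3 from -0.03 to 0.02 in the medium-dose difference. Among the 26, HSP90AB1 at medium-dose EESF was -0.02 with all genes of the table, and the others came from leaving out 1 library. There BAG3 ranged from -0.04 to 0.02 at medium-dose WESF, from -0.04 to 0.02 at medium-dose and from -0.02 to 0.06 at low-dose EESF, HSPA1A from -0.05 to 0.01 and HSP90AA1 from -0.03 to 0.10 at low-dose WESF, HSPH1 from -0.03 to 0.01 at high-dose EESF, and HSPD1 from -0.03 to 0.01 and HSP90AB1 from -0.01 to 0.02 at medium-dose EESF. Between the vehicles DNAJB1 ranged from -0.05 to 0.02 and HSPB1 from -0.06 to 0.02, and in the difference between extracts HSP90AA1 from -0.02 to 0.10 at the high dose, DNAJB1 from -0.01 to 0.05 at the medium and from -0.03 to 0.05 at the low dose, and BAG3 from -0.01 to 0.08 at the low dose.

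DESeq2 called 1 member higher, 1 lower and 476 genes in all at medium-dose WESF, 1 gene at low-dose WESF and 3 genes between the vehicles. It called 2 members and 154 genes in the medium-dose and 1 member and 49 genes in the low-dose difference. With no filter on low counts 3 genes were called at low-dose WESF, 4 between the vehicles, 94 in the medium-dose difference, and 21 genes with 1 member in the low-dose difference. With all 4 groups of the batch in the fit 770 genes were called at low-dose EESF. The cause was not tested.

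Leaving out 1 library gave 72 to 1560 called genes and 0 to 1 members lower at medium-dose WESF, and 0 to 1 genes at low-dose WESF. At high-dose EESF 3 to 5 members were higher, the 5 without EESF high replicate 1, beside 6485 to 7942 genes called in either direction. Members lower ranged from 2 to 4 and genes from 791 to 2838 at medium-dose EESF, and from 2 to 4 and 213 to 2679 at low-dose EESF, where the lowest counts came without vehicle B replicate 2. Between the vehicles 0 to 2 genes were called, in the medium-dose difference 1 to 146 genes and 0 to 1 members, and in the low-dose difference 1 to 5 genes. A group left with 2 libraries shares the spread of the fit.

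Within a batch, same-numbered libraries of a dose and its vehicle did not deviate together: the correlation of their deviations ran from -0.65 to 0.41, and 5 of 18 correlated best with their own number, so the numbers were not taken as pairs there, while those of the vehicles were. With the replicate number as a block 185 genes were called at medium-dose WESF, 478 genes and 2 members lower between the vehicles, 2245 genes in the high-dose, 0 genes and 0 members in the medium-dose and 11 genes in the low-dose difference, and HSPA8 at high-dose EESF had an adjusted p of 0.135. With the vehicle pairs as a block 2 members lower and 606 genes were called in the medium-dose and 1 member lower and 223 genes in the low-dose difference.

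Members hold at least 1181 counts in each library. Thinning all libraries to the depth of the shallowest one gave HSPA1A at high-dose EESF an adjusted p of 0.0425.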
